A study of Mus musculus with 2 samples.

Results

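A set of 10 antiviral effector genes that type I interferon induces was followed in chromatin-bound RNA of mouse macrophages: Mx1, Mx2, Rsad2, Cmpk2, Isg15, Isg20, Usp18, Herc6, Uba7 and Rnf213. The 10 genes were taken by symbol from a list, with earlier results of these data known, and all 10 were found among 55536 annotated genes, with 57 annotated transcripts. The cells were bone-marrow-derived macrophages of C57BL/6J mice, grown in culture from marrow. Both libraries came from 1 condition: 100 ng/ml lipid A for 12 h, a washout of 12 h, and 100 ng/ml lipid A again for 75 min. Lipid A is the part of bacterial lipopolysaccharide that Toll-like receptor 4 recognises. RNA of the chromatin fraction was depleted of ribosomal RNA and sequenced as replicates 1 and 2, from 250 ng and 500 ng of RNA. Both replicates carry the same donor entry, and the labels do not say whether they were separate cultures. Cells without lipid A were not analysed here, so the values are levels after the second exposure and no induction was measured. Replicate number and RNA input cannot be told apart.

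Interferon binds its receptor on the cell surface, receptor-bound kinases phosphorylate STAT proteins, and these enter the nucleus with IRF9 and bind interferon-stimulated response elements (ISREs) before target genes. In macrophages, Toll-like receptor 4 leads to interferon beta through IRF3, so lipid A engages this pathway through secreted interferon, and NF-kB in parallel. The products of the 10 genes act at different points. Mx1 and Mx2 are dynamin-like GTPases that block viruses in the cell. Rsad2 encodes viperin, a radical SAM enzyme that makes a chain-terminating nucleotide from CTP, and Cmpk2, its neighbour, a mitochondrial kinase for UMP and CMP. Isg15 is a ubiquitin-like protein that Uba7 activates, Herc6 attaches to targets in the mouse, and Usp18 removes again. Usp18 is also a brake on the interferon receptor. Isg20 is an RNA exonuclease, and Rnf213 a very large protein with ATPase and ubiquitin ligase activity.

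RefSeq windows from 250 bases before to 50 bases after an annotated start, on GRCm38.p6 (the assembly called mm10), were present for 7 of the 10 genes in 9 windows. Mx1, Mx2 and Usp18 had no entry. The core of an ISRE was searched as GAAA, 2 bases of any kind and GAAA, and an NF-kB motif as GGGA, 4 bases of any kind and CC, on both strands and with overlapping matches included. The 250 bases before the start are shown for Isg15 (chr4:156200819-156201068, minus strand), Rsad2 (chr12:26456453-26456702, minus strand) and Cmpk2 (chr12:26468965-26469214, plus strand), since Isg15 and Rsad2 held the ISRE core and Cmpk2 is the neighbour of Rsad2. Each is written 5′ to 3′ in the direction of transcription, with matches to either motif in capitals.
Isg15: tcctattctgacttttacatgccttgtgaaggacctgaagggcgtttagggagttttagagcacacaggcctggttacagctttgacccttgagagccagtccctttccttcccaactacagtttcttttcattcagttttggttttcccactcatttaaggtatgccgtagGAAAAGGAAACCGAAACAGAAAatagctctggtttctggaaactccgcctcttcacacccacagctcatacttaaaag
Rsad2: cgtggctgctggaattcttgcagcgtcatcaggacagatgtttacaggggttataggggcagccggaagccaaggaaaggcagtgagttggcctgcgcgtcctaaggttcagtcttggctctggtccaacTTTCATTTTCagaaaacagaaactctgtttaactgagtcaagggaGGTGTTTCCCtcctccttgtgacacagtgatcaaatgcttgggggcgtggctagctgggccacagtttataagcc
Cmpk2: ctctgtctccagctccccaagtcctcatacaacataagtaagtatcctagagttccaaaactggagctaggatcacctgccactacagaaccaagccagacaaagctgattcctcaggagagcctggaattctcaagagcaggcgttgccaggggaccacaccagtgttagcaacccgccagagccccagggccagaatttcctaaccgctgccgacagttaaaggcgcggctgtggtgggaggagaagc
The capitals of Isg15 are 3 overlapping ISRE cores, GAAAAGGAAA, GAAACCGAAA and GAAACAGAAA, which begin 78, 72 and 66 bases before the start. In Rsad2 the first run of capitals is the ISRE core on the opposite strand, GAAAATGAAA, at chr12:26456563-26456572, and the second is an NF-kB match on the opposite strand, GGGAAACACC, at chr12:26456518-26456527. Of all 32851 windows of this length, 3.44% held the ISRE core and 20.7% the NF-kB motif. Of the 3 Isg20 windows, 1 held 2 overlapping NF-kB matches, GGGACCTTCC and its neighbour on the other strand GGGAAGGTCC. The windows of Cmpk2, Uba7, Herc6 and Rnf213 held neither string of letters, which says only that these letters are not in these windows. By gene, 2 of the 7 held the ISRE core and 2 the NF-kB motif, beside 3.99% and 22.9% of 27025 genes with a window.

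Levels are given in TPM, the share of a library that a transcript takes after division by its length, so long and short genes may be set side by side. The level of a gene also depends on which annotated transcripts its reads were placed on, since few reads on a short one weigh heavily. Mx1-208, of 352 bases, took 16.2% of the TPM of Mx1 in replicate 1 on 1.11% of its counts. The median over the 10 genes of the mean level was 265 TPM, against 7.998 TPM over 9626 protein-coding genes with at least 1 TPM in either library. Within a library the median of the 10 genes was 238 TPM in replicate 1 and 252 TPM in replicate 2 (SD 9.78 TPM, n = 2). All 10 genes reached 10 TPM in both libraries, as did 17.9% of 22110 protein-coding genes and polymorphic pseudogenes. The count at 100 TPM was 7 of 10, where 2.04% of the same 22110 genes lay. Isg15, Usp18 and Isg20 were the 3 genes under 100 TPM. Together the 10 genes took 1.88% of the counts on annotated genes in replicate 1 (exact Clopper-Pearson interval at 95%, 1.87% to 1.89%) and 1.82% in replicate 2 (1.81% to 1.83%). The libraries held 18445009 and 17686824 expected counts, and such intervals cover counting error only.

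**Figure D1:**
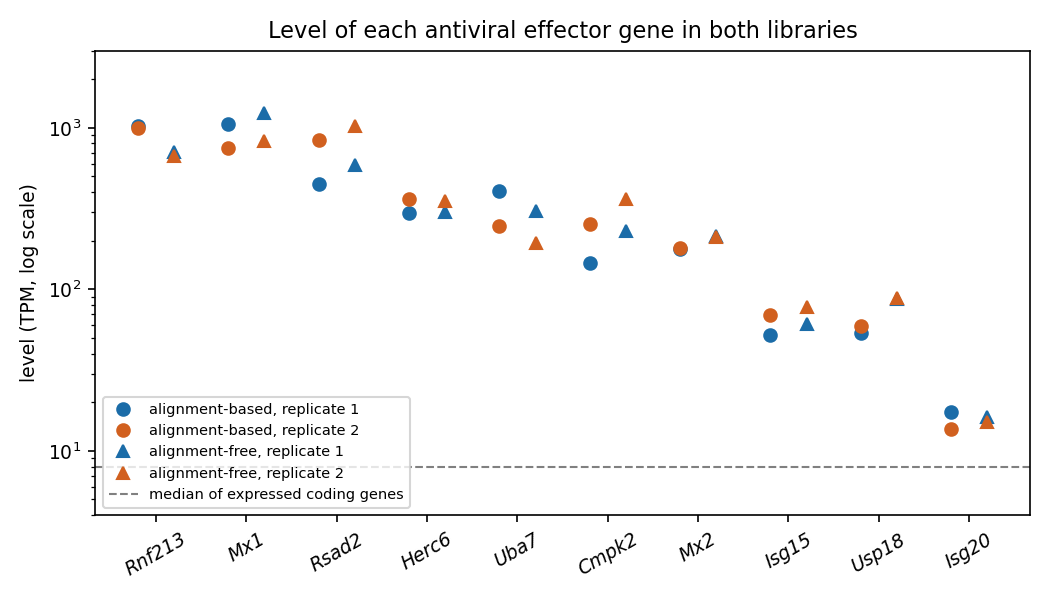
Level of each of the 10 genes in TPM on a log axis, ordered by mean level. Circles are the alignment-based values and triangles the alignment-free values, blue for replicate 1 and orange for replicate 2, and the dashed line is the median of expressed coding genes, 7.998 TPM. Every gene lies above that line, and Isg20 lies nearest to it.

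Rnf213 (ENSMUSG00000070327.14, chr11:119393100-119487418, plus strand) had the highest mean level. Replicate 1 had 1029 TPM and replicate 2 had 999.95 TPM, from 247800 and 214604 counts. The libraries lay close together, and the gene ranked 12 among the 9626 expressed coding genes. Rnf213, with a main transcript of 16716 bases, gave 71.7% of the counts of the 10 genes in replicate 1 and 66.9% in replicate 2. A noncoding gene on the opposite strand, A930037H05Rik, overlapped 38631 bases of its span, introns included, with 115.5 and 125.3 TPM from 7480 and 7460 counts. No source used here states whether reads were counted by strand, and the overlap of exons was not measured. The deposited posterior SD of the Rnf213 count, a measure of how far reads could belong to several genes, was 6.94 and 7.75 counts. Whether reads of 1 of these genes were counted on the other was not tested.

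Mx1 (ENSMUSG00000000386.15, chr16:97447035-97462907, minus strand) followed with 1057 TPM (replicate 1) and 749 TPM (replicate 2), from 29392 and 17750 counts. The mean was 903 ± 217 TPM (SD, n = 2), and its range overlapped that of Rnf213. Mx2 (ENSMUSG00000023341.15, chr16:97535308-97560900, plus strand) had 178 TPM and 180 TPM. Its libraries lay close together, with an SD of 1.59 TPM. Most laboratory mouse strains, C57BL/6 included, carry alleles of both genes that make no functional protein, and the annotation lists Mx2 as a polymorphic pseudogene.

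Rsad2 (ENSMUSG00000020641.16, chr12:26442746-26456452, minus strand) had 447 TPM in replicate 1 and 845 TPM in replicate 2, from 27380 and 47104 counts. Its SD of 281 TPM was the widest of the 10 genes, around a mean of 646 TPM. Cmpk2 (ENSMUSG00000020638.8, chr12:26469204-26479837, plus strand) had 146 and 256 TPM, from 7062 and 11307 counts. Both genes were higher in replicate 2.

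Of the ISG15 enzymes, Herc6 (ENSMUSG00000029798.11, chr6:57581000-57664632, plus strand), the ligase, had 299 TPM in replicate 1 and 360 TPM in replicate 2. Uba7 (ENSMUSG00000032596.14, chr9:107975505-107984060, plus strand), the activating enzyme, had 409 and 248 TPM, the reverse order of libraries. Usp18 (ENSMUSG00000030107.10, chr6:121245906-121270917, plus strand), the protease, had 54.0 and 59.0 TPM. Isg15 itself (ENSMUSG00000035692.6, chr4:156199424-156200818, minus strand), the modifier that these enzymes handle, had 51.8 and 69.8 TPM from only 442 and 558 counts. In chromatin-bound RNA the gene of the modifier thus lay below those of its activating enzyme and its ligase in both libraries. These levels are sums over all annotated transcripts of a gene. The only Uba7 transcript classed as protein coding, Uba7-201, had 22.8 and 15.6 TPM, which is below Isg15. Herc6-201, the coding transcript of Herc6, had 78.6 and 79.4 TPM, which is above it. By the alignment-free program Herc6-201 had 64.8 and 61.2 TPM and Isg15 61.0 and 77.5 TPM. There Herc6-201 was above Isg15 in replicate 1 and below it in replicate 2. Isg20 (ENSMUSG00000039236.18, chr7:78913424-78920396, plus strand) was lowest at 17.4 and 13.7 TPM, from 192 and 141 counts.

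From the highest to the lowest mean the genes ran Rnf213, Mx1, Rsad2, Herc6, Uba7, Cmpk2, Mx2, Isg15, Usp18 and Isg20, a 65.2-fold span. Among neighbours in this order the ranges of the 2 libraries were apart at 3 steps, from Rsad2 to Herc6, from Mx2 to Isg15 and from Usp18 to Isg20. At the other 6 steps the ranges of the neighbours overlapped. Isg20 stood at the 66.3rd percentile of expressed coding genes, and Isg15 at the 90.0th. The alignment-free program gave another order of the 3 highest genes, with Mx1 at 1230 and 832 TPM, Rsad2 at 588 and 1021 TPM, and Rnf213 at 706 and 666 TPM. By mean level it also put Cmpk2, at 298 TPM, above Uba7, at 248 TPM. In both libraries it put Usp18 above Isg15, which had 61.0 and 77.5 TPM. It moved Usp18 by more than the others relative to its level, to 87.6 and 88.6 TPM, 1.56-fold the alignment-based mean. Over the 9626 expressed coding genes the median of that fold was 1.29, and 7 of the 10 genes lay above their alignment-based mean. Rnf213 at 0.68-fold and Uba7 at 0.76-fold lay farthest on the other side.

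Replicate 2 was set against replicate 1 as a log2 ratio of rounded counts, scaled by TMM, a normalisation that takes most genes to be alike. No gene of the 10 differed over 2-fold between the libraries, where 7.29% of 13247 genes with at least 10 counts in each did. The ratio compares 2 libraries of 1 condition, and no p-value was computed. Rsad2 was highest with a log2 ratio of 0.92 (exact interval at 95% from the counts, 0.89 to 0.94), and Cmpk2 next with 0.81 (0.77 to 0.86). Uba7 was lowest with -0.61 (-0.65 to -0.57), beside Mx1 with -0.59 (-0.62 to -0.57). The intervals of Isg15 at 0.47 (0.29 to 0.65), Herc6 at 0.26 (0.23 to 0.29) and Usp18 at 0.17 (0.04 to 0.31) also lay above 0. Rnf213 at -0.07 (-0.08 to -0.07) lay below 0, while those of Mx2 at 0.02 (-0.04 to 0.08) and Isg20 at -0.31 (-0.64 to 0.01) held 0. The sign of the Mx2 ratio turns with other scalings, to -0.0052 by DESeq2 size factors, -0.056 by total counts and -0.12 by alignment-free counts. In all 5 intervals lay above 0, as for 24.7% of the genes tested, and 3 below 0, as for 22.8%. With other scalings, added after seeing the data, 4 or 5 lay above 0 and 4 below. Usp18 held 0 by total counts (-0.04 to 0.24) and by alignment-free counts (-0.07 to 0.11). Isg20 lay below 0 by DESeq2 size factors (-0.66 to -0.01) and by total counts (-0.71 to -0.06), and Mx2 by alignment-free counts (-0.16 to -0.07). Deeply counted genes pass this bar easily, since the interval excluded 0 in 83.0% of the 2191 genes whose mean count was 1000 or more. The median ratio of the 10 genes was 0.10, against 0.00 over all genes tested.

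**Figure D2:**
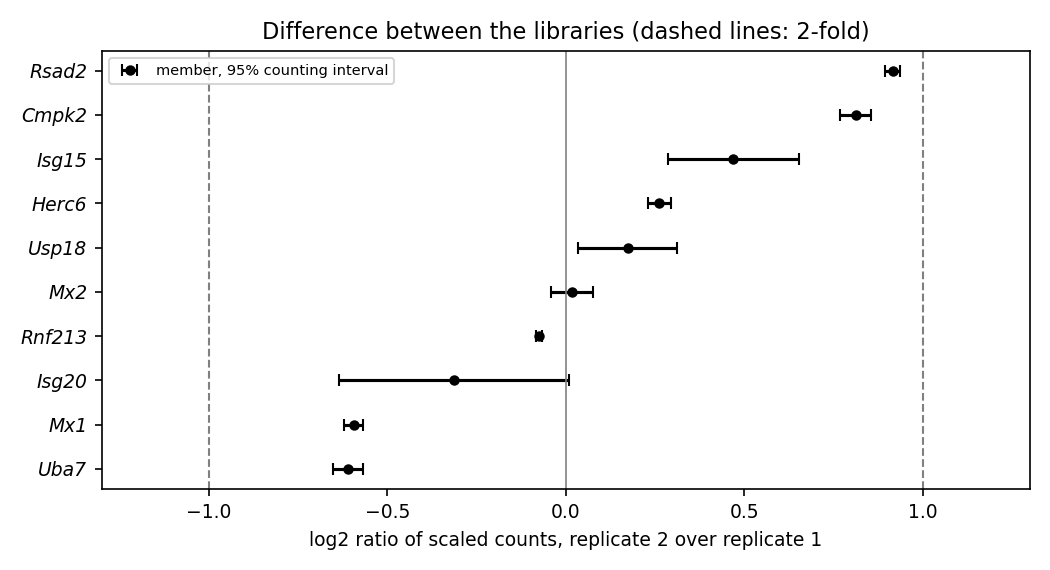
The log2 ratio of replicate 2 over replicate 1 for each of the 10 genes, from TMM-scaled counts. Bars are exact counting intervals at 95%, the solid line is no difference and the dashed lines mark 2-fold. Rsad2 (0.92) and Cmpk2 (0.81) lie farthest to the right and Uba7 (-0.61) and Mx1 (-0.59) farthest to the left, all inside 2-fold.

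The macrophage label was checked against marker genes. All 10 genes of that list reached 1 TPM in both libraries, with a summed level of 1281 TPM in replicate 1 and 913 TPM in replicate 2. Adgre1 alone, which encodes F4/80, went from 497 to 193 TPM, while Msr1 went the other way, from 251 to 307 TPM. Of the 10 markers, 6 had an interval below 0 and 2 above it, beside 22.8% and 24.7% of all genes tested and 83.0% of deeply counted genes with an interval on either side of 0. The part of these marker values in the ratios of the antiviral genes was not tested, and in bulk RNA fewer cells of a type and less RNA per cell cannot be told apart. Markers of other cells were low in the alignment-based table, with summed counts of 71 and 52 for T cells, nearly all from Cd4, and 53 and 87 for fibroblasts. B cells had 3 and 1, neutrophils 2 and 3, and NK cells 0 and 1. The alignment-free table went against this for the T cell gene Cd3d, which had 15.5 and 20.1 TPM there against 2 and 0 counts by alignment, and gave the neutrophil gene Cxcr2 3.47 and 3.66 TPM. For plasmacytoid dendritic cells, a strong source of interferon, 3 of 5 listed genes (Bst2, Tcf4 and Irf8, all known in macrophages too) reached 10 TPM, while the defining marker Siglech had 3 counts and 1 count.

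Rsad2 and Cmpk2 lie back to back on chromosome 12 with 12751 bases and no annotated gene between them. Per length, Rsad2 stood 3.07-fold above Cmpk2 in replicate 1 and 3.31-fold in replicate 2, a log2 ratio of 1.67 ± 0.076 (SD, n = 2). The ratio within a library thus moved little while both genes were higher in replicate 2. Their replicate ratios, 0.92 and 0.81, had counting intervals that did not overlap. By the alignment-free program Rsad2 stood 2.56-fold and 2.80-fold above Cmpk2.

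Mx1 and Mx2 also point away from each other on chromosome 16, but 72400 bases apart with 4 annotated genes between them. Mx1 stood 5.95-fold above Mx2 in replicate 1 and 4.17-fold in replicate 2, a log2 ratio of 2.32 ± 0.36 (SD, n = 2). The replicate ratio of Mx1 was -0.59, with an interval below 0, while that of Mx2 was 0.02, with an interval that held 0. Next to Mx1, Bace2 had 1 and 3 counts. Beside Mx2, Fam3b had 6 and 2 counts and Tmprss2 49 and 64, and 2210009P08Rik beside Mx1 had 1 and 0, so the nearest genes around this pair were all under 2 TPM.

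Most other genes next to the 10 were also low. Agrn, 1935 bases from Isg15, had 34.8 and 32.4 TPM and was the highest neighbour that overlaps no listed gene, apart from the listed pair itself. Aen, beside Isg20, had 18.2 and 20.96 TPM, above Isg20 in both libraries. Overlaps other than that of Rnf213 were small in counts: Gm45193 on the strand of Herc6 had 391 and 376 counts, Gm19244 opposite Herc6 had 24 in each library, Gm20661 on the strand of Uba7 had 22 and 34, and Gm44148 opposite Usp18 had 1 and 0. The deposited posterior SD of the count, which measures how far reads could belong to several genes, was under 1% for each of the 10.

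The deposited transcript tables divide each gene among annotated isoforms, which carry a class. A retained-intron isoform keeps intronic bases and a nonsense-mediated decay isoform has an early stop codon. Chromatin-bound RNA holds transcripts that are not yet fully spliced, and their reads can fall on either class. The part of such RNA in the shares given here was not tested. Summed over the 10 genes, retained-intron isoforms took 23.6% ± 1.85 of the TPM (SD, n = 2) but 6.87% of the counts. Of the 7 genes with such an isoform, 4 had over 50% of their TPM on that class (Herc6, Uba7, Cmpk2 and Isg20), as had 41.4% of 6162 expressed coding genes with one. The median share of the 7 genes was 53.7%, against 44.9% for those 6162 genes. In the alignment-free table Isg20 had 53.2% and 49.97% on that class and Herc6 50.2% and 51.3%, both near the limit of 50%. Uba7 had 74.3% and 75.0% there, and Cmpk2 71.9% and 69.2%. Of the 4 genes with a nonsense-mediated decay isoform, Mx1 alone exceeded 50% by alignment, as did 3.34% of 3050 expressed coding genes with one. Its share was 63.4% and 58.9% there, but 45.7% and 44.0% in the alignment-free table, where no call over 50% would be made.

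**Figure D3:**
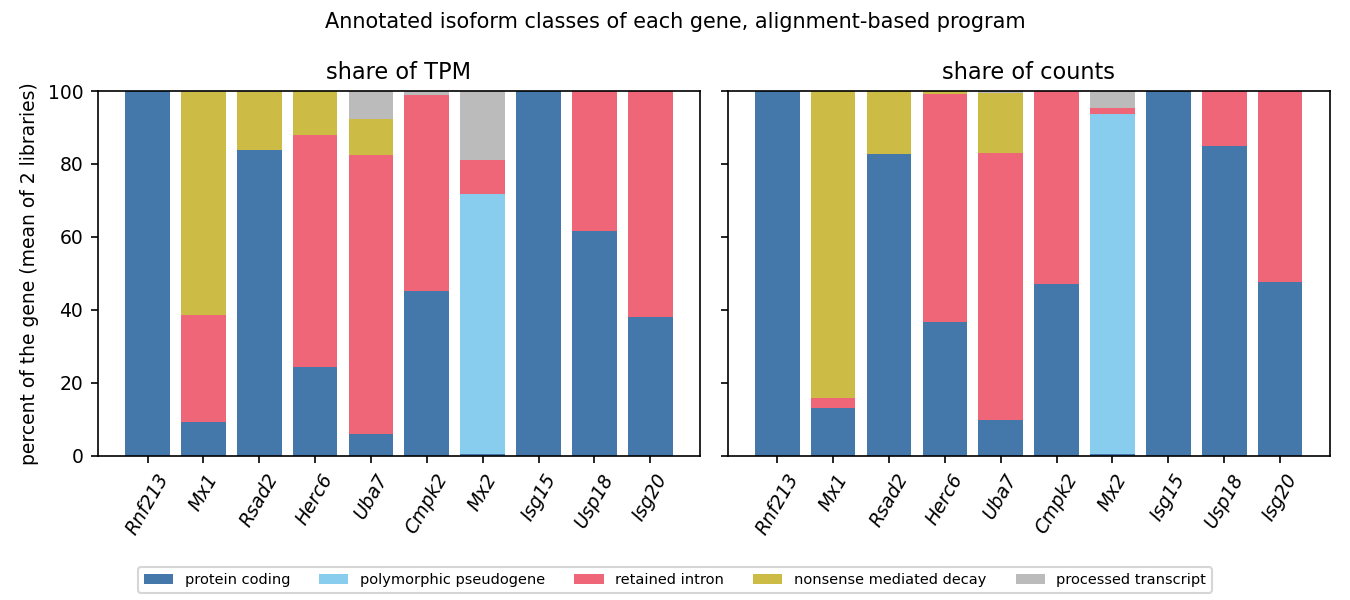
Share of each gene on each annotated isoform class, as percent of the gene and mean of the 2 libraries in the alignment-based table, by TPM on the left and by counts on the right. Herc6, Uba7, Cmpk2 and Isg20 have most of their TPM on retained-intron isoforms, and Mx1 on nonsense-mediated decay isoforms (61.2%, but 44.9% by the alignment-free program). Rnf213 and Isg15 have no annotated isoform outside the protein-coding class.

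Uba7 had the largest retained-intron share, 75.1% of TPM in replicate 1 and 78.2% in replicate 2. It was spread over 10 such isoforms, of which Uba7-212 held 16.9% and 15.2%, Uba7-203 11.9% and 11.0%, Uba7-215 11.7% and 10.6%, Uba7-210 10.2% and 10.2%, and Uba7-202 5.65% and 11.4%. The coding isoform Uba7-201 held 5.57% and 6.28%. That is the only Uba7 isoform classed as protein coding. On counts, the short models Uba7-212 (503 bases) and Uba7-203 (362 bases) held 2.42% and 2.15%, and 0.83% and 0.78%. Uba7-215 held 21.1% and 17.6% of the counts, and Uba7-210 20.0% and 18.3%.

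In Herc6 the largest share by alignment went to Herc6-202, with 40.0% and 45.0% of TPM. It is an unspliced model of 1 exon, with 4081 of its 4378 bases in an intron of the coding isoform Herc6-201, which held 26.3% and 22.0%. Herc6-203, a decay isoform of 449 bases, held 10.5% and 13.6%, and Herc6-205, with a retained intron, 10.3% and 8.86%. In the alignment-free table Herc6-203 had 28.2% and 31.3% and Herc6-202 27.6% and 31.8%, so neither led in both libraries. Reads on Herc6-202 are largely intronic by position: it had 8446 and 10367 counts, against 6083 and 5557 on the coding isoform.

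Cmpk2 was split nearly evenly, with 45.1% and 45.3% of TPM on the coding isoform Cmpk2-201 and 49.3% and 49.8% on Cmpk2-204, which keeps 897 intronic bases. The libraries were within 1 percentage point of each other although the gene was 1.76-fold higher in replicate 2 by scaled counts. In the alignment-free table Cmpk2-203, a model of 330 bases, held 47.9% and 43.3% of TPM on 4.29% and 3.70% of the counts. Isg20 had 62.0% and 61.9% on its retained-intron isoform Isg20-205, with 18.6% and 19.4% on the coding isoform Isg20-204 and 16.5% and 16.0% on Isg20-201. Usp18 had 49.3% and 52.0% on the coding isoform Usp18-201, and 26.4% and 21.7% on Usp18-202 and 16.6% and 12.3% on Usp18-204, both with a retained intron. The short coding isoform Usp18-203 held 7.68% and 14.0%. The summed retained-intron share of Usp18 was 43.02% and 34.02%, and 39.2% and 37.4% in the alignment-free table.

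Isg15 has 1 annotated isoform, so nothing is divided there. The 3 annotated isoforms of Rnf213 are all classed as protein coding, so its share of 100% on that class follows from the annotation. Rnf213 had 82.9% and 81.8% of TPM on the full-length Rnf213-201 and 16.997% and 18.2% on the shorter coding isoform Rnf213-203. The alignment-free table listed Rnf213-203 at 0 in both libraries and put 96.3% and 97.0% on Rnf213-201. Rnf213-202 differs from Rnf213-201 by 3 bases only, so the split between those models is uncertain.

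Rsad2 had 84.6% and 83.1% of TPM on the coding isoform Rsad2-201 and 14.9% and 16.7% on the decay isoform Rsad2-202. An exon of 435 bases at chr12:26451973-26452407 sets Rsad2-202 apart. The junction is shown because it is where that isoform takes up the added exon. The last 20 bases of the exon before are in lower case, and the first 50 bases of the added exon in capitals (bases from chr12:26452358-26454037, minus strand, intron left out).
Rsad2-202: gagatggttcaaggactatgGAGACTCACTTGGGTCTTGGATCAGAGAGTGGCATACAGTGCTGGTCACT
The alignment-free program divided Rsad2 otherwise, with 38.8% and 40.3% on Rsad2-201, 29.2% and 29.1% on Rsad2-202, and 32.0% and 30.6% on Rsad2-203, a processed transcript of 430 bases. On counts Rsad2-203 held 2.81% and 2.67% in that table, so its TPM share comes from few reads on a short model.

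The programs also divided Mx1 differently. By alignment, the decay isoform Mx1-205 held 43.3% and 36.6% of TPM, Mx1-210, also a decay isoform, 15.8% and 18.3%, and the retained-intron isoforms Mx1-208 and Mx1-206 16.2% and 19.03%, and 11.5% and 12.0%. Without alignment, Mx1-205 held 4.89% and 1.93%, while the decay isoform Mx1-203 had 20.1% and 19.1% and the coding isoform Mx1-201 14.2% and 15.4%. Mx1-201, which the alignment-based table put at 0.61% and 0.48%, has 4 exons that Mx1-205 lacks, 404 bases within chr16:97451599-97452497. Mx1-208 is a model of 352 bases with 1.11% and 1.56% of the gene's counts. The programs thus lay apart on which isoform leads, while the mean level of the whole gene was 903 TPM in one and 1031 TPM in the other.

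**Figure D4:**
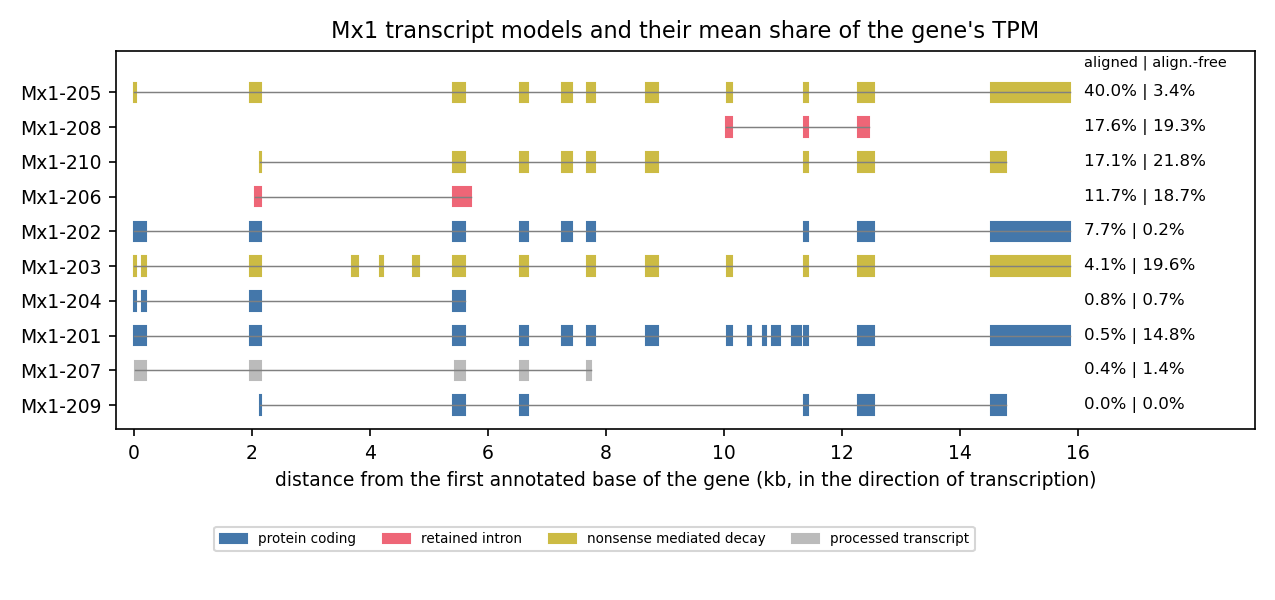
Exons of the 10 annotated Mx1 isoforms against distance from the first annotated base of the gene in kb, coloured by class. The numbers at the right are mean shares of the gene's TPM by alignment and without it: Mx1-205 leads in the first and Mx1-210 in the second, and Mx1-201 alone has the cluster of small exons near 11 kb.

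In Mx2 both programs put most of the gene on a pseudogene model. Mx2-202, classed as a polymorphic pseudogene, held 70.2% and 70.3% of TPM, and 91.8% and 91.9% of counts. Mx2-203, a processed transcript of 649 bases, held 19.3% and 18.4% of TPM. Mx2-201, the only model classed as protein coding, had 0 counts in replicate 1 and 41.95 in replicate 2, or 0% and 0.70% of TPM. Both models share 2415 bases, and 2 bases belong to Mx2-201 alone and 6 to Mx2-202 alone. At 1 exon junction they part by 3 of the 6 bases of Mx2-202 and by the 2 bases of Mx2-201. The other bases of Mx2-202 alone lie elsewhere and are not shown. The junction is given because the division of reads between the models rests in part on it (bases from chr16:97552049-97555975, plus strand, intron left out). Bases that belong to 1 model only are in capitals.
Mx2-202: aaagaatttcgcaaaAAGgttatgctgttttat
Mx2-201: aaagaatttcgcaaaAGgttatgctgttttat
The capitals are the last 3 bases of an exon in Mx2-202 and the first 2 bases of the next exon in Mx2-201. The models differ in length by 1 base at this junction, which shifts the reading frame after it. In the alignment-free table Mx2-202 held 61.2% and 59.5% of TPM and Mx2-201 0% and 0.18%.

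The remaining pathway was read from a list of 47 genes. Of these, 44 reached 10 TPM and 19 reached 100 TPM in both libraries, with a median level of 95.04 TPM, between that of expressed coding genes and that of the 10 effectors. Intervals of the replicate ratio lay above 0 for 23 and below 0 for 14, beside 24.7% and 22.8% of all genes tested and 83.0% of deeply counted genes on either side of 0. At the top of the pathway Ifnb1, the ligand, was low and uneven, at 2.61 TPM from 22 counts and 14.4 TPM from 114 counts. The receptor chains Ifnar1 and Ifnar2 had 93.3 and 107.01 TPM, and a mean of 61.3 ± 7.42 TPM (SD, n = 2). Among 8 kinases and transcription factors, all at 10 TPM, Stat2 had 402 and 369 TPM and Irf1 358 and 374 TPM, and Irf9, the partner of STAT proteins at the ISRE, was lowest at 34.5 and 39.0 TPM.

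Of 4 sensors of viral RNA, 3 reached 10 TPM. Ifih1 (MDA5) had 167 and 447 TPM and Ddx58 (RIG-I) 164 and 147 TPM, while the endosomal receptor Tlr3 had 5.66 and 6.35 TPM. Of 28 other effectors, 27 reached 10 TPM. Oasl2, an OAS-like protein, led with 660 and 1043 TPM, followed by Oasl1 with 222 and 450 TPM, and Ifit3b was lowest with 9.20 and 7.13 TPM. Oasl2, Oasl1 and Ifih1 had log2 replicate ratios of 0.68, 0.90 and 1.32, beside 0.92 for Rsad2 and 0.81 for Cmpk2.

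Summed over all isoforms of each gene, the 4 other partners of ISG15 conjugation were lower than Uba7 and Herc6. Trim25, a ligase for ISG15, had 75.7 and 90.6 TPM, Arih1 71.4 and 68.9 TPM and Ube2e1 14.3 and 15.1 TPM. Ube2l6, the conjugating enzyme between Uba7 and Herc6, was named after its values were seen, with 14.6 and 20.5 TPM. By the alignment-free program Ube2l6 had 51.8 and 63.1 TPM. Under either program Ube2l6 as a whole gene stood below the whole genes Uba7 and Herc6 in both libraries.

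**Figure D5:**
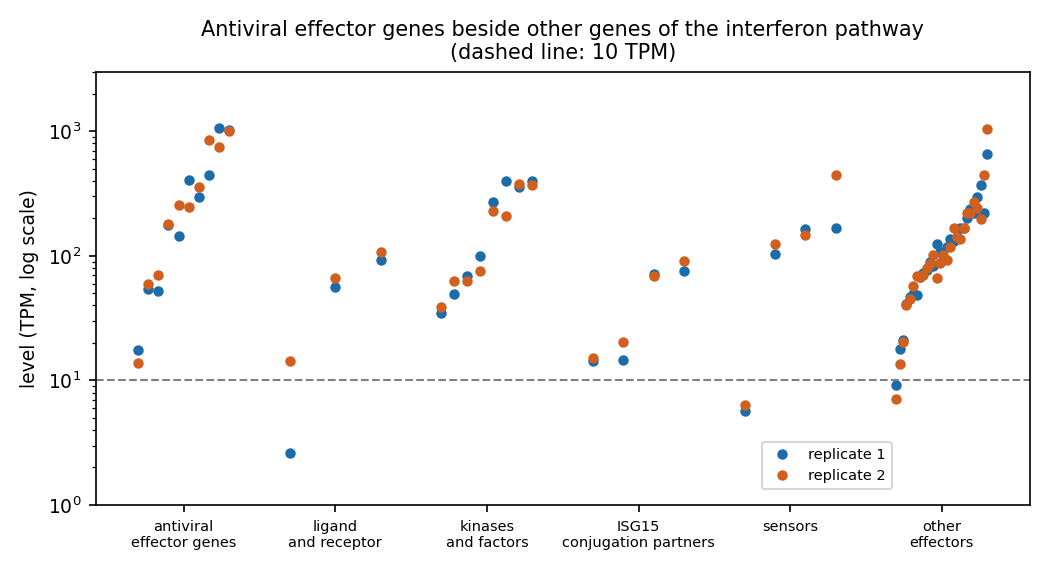
Levels in TPM on a log axis of the 10 effector genes and of 47 other interferon-pathway genes in 5 groups, each gene at its own position ordered by mean level, blue for replicate 1 and orange for replicate 2. The dashed line marks 10 TPM, above which lie 10 of 10 effectors and 44 of 47 other genes in both libraries, and Ifnb1 is the lowest point at 2.61 TPM.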

How the data were processed

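Chromatin-fraction total RNA was sequenced in 2 libraries of 1 group. Per the README of each library, the files use mm10 and GENCODE M21. The authors' deposited expected counts and TPM per gene and transcript came from alignments to the transcriptome, with the column names that RSEM writes per the file headers. A second deposited table of estimated counts and TPM per transcript was made from reads without alignment, with column names as kallisto writes, and was summed per gene. The program, its version and the strand setting were not named in any source used here.

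Expected counts were rounded and scaled by TMM (edgeR 4.0.16, R 4.3.3), and DESeq2 1.42.0 size factors were an alternative. Ratios required 10 counts in each library, with exact Clopper-Pearson intervals at 95% for counting error. With 1 group there was no test of a condition. The ratio step was run on simulated counts with counting noise only, where 96.2% of the intervals held the simulated log2 ratio. Other spread between libraries was not simulated. Overlaps, neighbours and exons came from GENCODE M21 and promoter windows from RefSeq on GRCm38.p6. The planned protein comparison was not run, as no protein sequences were used here.

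The genes and lists were chosen with earlier results of these data known. Named were all 10 genes, isoforms with at least 10% of a gene's TPM in either library, overlapping or adjacent genes, and the 2 highest and the lowest gene of each pathway list. Others named for a stated reason were chosen after their values were seen.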

Additional observations from a re-analysis of the deposited data

How the results depend on the processing

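With 1 group of 2 libraries, spread between libraries is the only error, and may be technical. All 10 genes reached 10 TPM under each alternative tried, except that 7 did at a limit of 100 TPM, where 19 of the 47 other pathway genes did. The median level of the 10 genes was 978.4 TPM when TPM was taken over protein-coding genes only, 246.9 TPM by posterior-mean TPM, and 238.1 to 251.9 TPM without 1 replicate. The log2 ratio of Rsad2 over Cmpk2 was 1.42 by the alignment-free program and 2.01 on counts. The retained-intron share was 26.8% by the alignment-free program, 6.87% of counts, 48.4% with all isoforms not classed as protein coding, and 32.4% without Rnf213, an alternative chosen after seeing the data. The Mx2 replicate ratio changed sign, to -0.0052 by DESeq2 size factors, -0.056 by total counts and -0.12 by alignment-free counts. It was the only gene with a change of sign among 40 alternatives for the 10 genes. DESeq2 size factors shifted the median gene by -0.02 and total counts by -0.07, and intervals above 0 then numbered 5 and 4, and those below 0 numbered 4 under each. Depth limits Isg20 most, with 192 and 141 counts. No paired analysis was possible because there is 1 group.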
